A study of Homo sapiens with 42 samples.

Results

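The genes described here are 10 members of the hnRNP family other than HNRNPC, namely HNRNPA1, HNRNPA2B1, HNRNPF, HNRNPH1, HNRNPH2, HNRNPK, HNRNPL, HNRNPM, HNRNPU and PCBP2. They were chosen by name, out of the 42145 genes with entries in the tables, and they hold 65 of the 89065 entries that could be given to a gene. An entry is either an annotated transcript end or a site named by its position. All libraries came from MDA-MB-231, a triple-negative breast cancer cell line, and were made from polyadenylated 3′ ends with the QuantSeq REV kit, which gives about 1 read per transcript whatever its length. In the first table, LM2 cells, labelled highly metastatic to lungs, and Par cells, labelled poorly metastatic, were each split into nuclear and cytoplasmic RNA. The second held both fractions of poorly metastatic cells with HNRNPC knockdown (gHNRNPC) and of their control (gCTRL). The third held total RNA of LM2 cells exposed for 6 h to 3 µM of a compound named T4, or to the same volume of its solvent DMSO, and harvested at 6, 24 or 72 h. Each of the 14 groups had 3 libraries, 42 in all. Since no label ties the 3 libraries of a group to separate cultures, the p-values speak only for the variation among these libraries, and part of it may be technical.

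The hnRNP proteins bind nascent transcripts in the nucleus and act in splicing, 3′-end processing, export, stability and translation, and several of them shuttle between nucleus and cytoplasm. HNRNPA1 and its close relative HNRNPA2B1 repress splice sites, HNRNPF, HNRNPH1 and HNRNPH2 bind runs of G, HNRNPK and PCBP2 bind C-rich RNA through KH domains, HNRNPL binds CA repeats, HNRNPM binds GU-rich RNA, and HNRNPU, also called scaffold attachment factor A, binds chromatin and RNA. Many of these genes regulate their own or each other's transcripts. A transcript is cut and polyadenylated a short way downstream of a hexamer, most often AATAAA in DNA letters.

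For HNRNPH1, HNRNPH2, HNRNPK, HNRNPL, HNRNPM and PCBP2 a single transcript end held at least 98.03% of the gene's reads in each table. For HNRNPA1, HNRNPA2B1, HNRNPF and HNRNPU the 2 most used sites were compared. Both HNRNPA1 sites are annotated ends in the 3′ UTR, inside the last exon (exon 10) that the transcripts HNRNPA1-201 and HNRNPA1-203 share. That exon starts at position 54284549 of chromosome 12 (GENCODE 29, GRCh38, plus strand), the proximal end, HNRNPA1-201, lies at 54284881, and the distal end, HNRNPA1-203, lies 2206 bases further on at 54287087. In the other 3 genes the distal site is an annotated end (HNRNPA2B1-204, HNRNPF-201 and HNRNPU-226) and the proximal site is named by position only; it was taken as upstream because the tables list it with that end. These 3 positions lie outside the GRCh38 spans of their genes and their assembly is not given in the sources used here, so the order of the sites of HNRNPA2B1, HNRNPF and HNRNPU, and every distal share or direction given for them, rests on that listing. Of the 4 coding HNRNPA2B1 transcripts in GENCODE 29, 0 end within 20 bases of the end of HNRNPA2B1-204. Whether reads at that end come from the coding mRNA was not tested. Stretches of 30 bases around the polyadenylation hexamer (in capitals) follow for HNRNPA1, HNRNPF, HNRNPH1, HNRNPH2 and PCBP2, read 5′ to 3′ from GENCODE 29 transcripts. They show how the HNRNPA1 hexamer surroundings differ and how alike those of HNRNPH1 and HNRNPH2 are. The stretches of HNRNPA1 and HNRNPF run to the annotated end, and those of HNRNPH1, HNRNPH2 and PCBP2 stop short of it.
HNRNPA1-203: ttttttttttAATAAActgtatttaactta
HNRNPA1-201: cgtgacgctgAATAAAtgtcttttttttaa
HNRNPF-201: ttttttcttaaAATAAAgactttttcacaa
HNRNPH1-206: aaacttgtcaAATAAAtcctccttttaaaa
HNRNPH2-201: aaacttgttaAATAAAtcttccttttaaaa
PCBP2-219: tgattttttaATTAAAgcgttttaattcct
The hexamer starts 20 bases before both HNRNPA1 ends, 19 before that of HNRNPF, 25 before that of HNRNPH1-206 and 31 before those of HNRNPH2-201 and PCBP2-219, so the HNRNPH1 and HNRNPH2 ends themselves lie at different distances from it. These ends lie on chromosome 12 for HNRNPA1 and PCBP2 (PCBP2-219 ends at 53479624, plus strand), chromosome 10 for HNRNPF (43386022, minus strand), chromosome 5 for HNRNPH1 (179614179, minus strand) and chromosome X for HNRNPH2 (101414133, plus strand). Letters were searched on the transcript strand of the last 50 bases of 66115 annotated ends in the tables: AATAAA was in 26.6% of them, the variant ATTAAA in 8.49%, and a run of 8 T (TTTTTTTT) in 0.709%. Both HNRNPA1 windows hold such a run, of 11 T just before the hexamer at the distal end and of 8 T after it at the proximal end. HNRNPH1-206 and HNRNPH2-201 share an identical run of 17 bases within their last 200. Among the 11 main annotated ends of the 10 genes, only HNRNPK-204 held neither AATAAA nor ATTAAA in its last 50 bases. For each of these 11 ends, no transcript of another gene in GENCODE 29 held the last 50 bases exactly. HNRNPA1 in particular has many processed pseudogenes, so reads of near-identical copies may have been assigned uncertainly, and its values carry that limit. Entries with a fractional count held 0% of its reads in the LM2 and knockdown tables and 6.245% in the T4 table. Whether any of its reads came from such copies was not tested.

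Depth ran from 0.798 to 2.3 M (mega) counts a library. Levels are given as CPM, the standard unit of counts scaled to the library's depth, after TMM scaling. The line's 6 high markers (VIM, CD44, EGFR, AXL, MSN and CAV1) were detected in every group. Of the 7 genes listed as low in this line, ESR1 and PGR were at or near 0 and CDH1 never passed 2.28 CPM. KRT8 was at 40.0 to 74.0 CPM in Par nuclei. In Par cytoplasm it was at 25.2 to 31.8 CPM, where EGFR was at 19.0 to 24.5 CPM. EPCAM reached 20.2 CPM in LM2 nuclei, GATA3 19.4 CPM in Par nuclei and ERBB2 12.6 CPM in gHNRNPC nuclei. MALAT1, a nuclear RNA, was at 12.4 to 75.7 CPM in the nuclear libraries and 2.14 to 8.61 CPM in the cytoplasmic ones. The other nuclear RNAs of the list were at or near 0. The 6 RNAs listed as cytoplasmic went both ways. In each kind of cells ACTB and TPT1 were lower in nuclei (TPT1 at 814 to 1672 CPM in nuclei and 3081 to 5659 CPM in cytoplasm), MT-ND4 and MT-CO1 were higher there (MT-ND4 at 1253 to 10000 CPM in nuclei and 56.7 to 429.7 CPM in cytoplasm), and GAPDH and EEF1A1 never passed 13.5 CPM. HNRNPC itself was lower in gHNRNPC than in gCTRL cells, at 99.1 ± 13 against 508 ± 31.8 CPM in the cytoplasm and 97.7 ± 15.9 against 530 ± 95.4 CPM in nuclei (SD, n = 3 each). Nuclear libraries numbered 2 had 46.3% (LM2) and 43.6% (Par) of their reads in entries with a fractional count, while the remaining 10 LM2 and Par libraries had 9.2 to 18.1% there. In the T4 table the 6 h T4 library numbered 3 stood apart, with a TMM factor of 0.502 and 58.8% of its reads in entries with a fractional count. It held 17 HNRNPA1, 5 HNRNPF, 13 HNRNPL and 52 HNRNPH1 counts, against at least 278, 145, 191 and 312 in every other library of that table.

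All 10 genes passed the expression filter in all 3 tables. The highest group mean was reached by HNRNPH1, at 648 ± 81.8 CPM in gCTRL nuclei. Its lowest was 281 ± 12.3 CPM (T4, 24 h), and HNRNPM ranged from 172 ± 10.2 to 364 ± 59.5 CPM. HNRNPF, HNRNPL and HNRNPA1 had their highest means in Par nuclei (562 ± 135, 637 ± 60.6 and 513 ± 78.8 CPM), HNRNPF and HNRNPL their lowest in LM2 cytoplasm (95.9 ± 6.94 and 98.5 ± 14.7 CPM), and HNRNPA1 its lowest in gHNRNPC nuclei (186 ± 56.1 CPM). HNRNPA2B1 stayed between 36.5 ± 7.79 and 53.5 ± 1.93 CPM. PCBP2 went lowest, to 19.0 ± 3.01 CPM in gHNRNPC nuclei. Levels in different tables were scaled separately, so these ranges are descriptions.

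In the cytoplasm, 4 of the 10 genes were lower in LM2 than in Par cells, namely HNRNPF, HNRNPL, HNRNPA1 and HNRNPH2, and none was higher. In this comparison 7.79% of all 8541 genes tested were called lower and 4.38% higher by edgeR's quasi-likelihood test at an adjusted p under 0.05. Either way, 12.2% were called. In such bulk RNA, fewer transcripts per cell and fewer cells with the transcript cannot be told apart. The median log2 change was -0.47 over the members (9 of 10 negative) and -0.02 over all genes. HNRNPF, a G-run binding splicing regulator, had 93.9, 104 and 90.1 CPM in LM2 cytoplasm, against 340, 476 and 211 CPM in Par cytoplasm. The LM2 libraries lay all below the Par libraries, by a log2 of -1.83 ± 0.28 (SE, edgeR adjusted p = 0.0019). HNRNPH2, its X-linked relative, had 95.8, 96.8 and 104 CPM in LM2 cytoplasm, against 197, 186 and 159 CPM in Par cytoplasm (-0.87 ± 0.14, edgeR adjusted p = 0.0031), again without overlap. HNRNPL, the CA-repeat binder, had 110, 103 and 82.2 CPM in LM2 and 253, 321 and 134 CPM in Par cytoplasm (-1.26 ± 0.28, edgeR adjusted p = 0.014). HNRNPA1 had 175, 226 and 172 CPM in LM2 and 373, 460 and 292 CPM in Par cytoplasm (-0.98 ± 0.23, edgeR adjusted p = 0.019). The Par libraries of these genes spread more than the LM2 libraries, with the third the lowest each time.

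**Figure D1:**
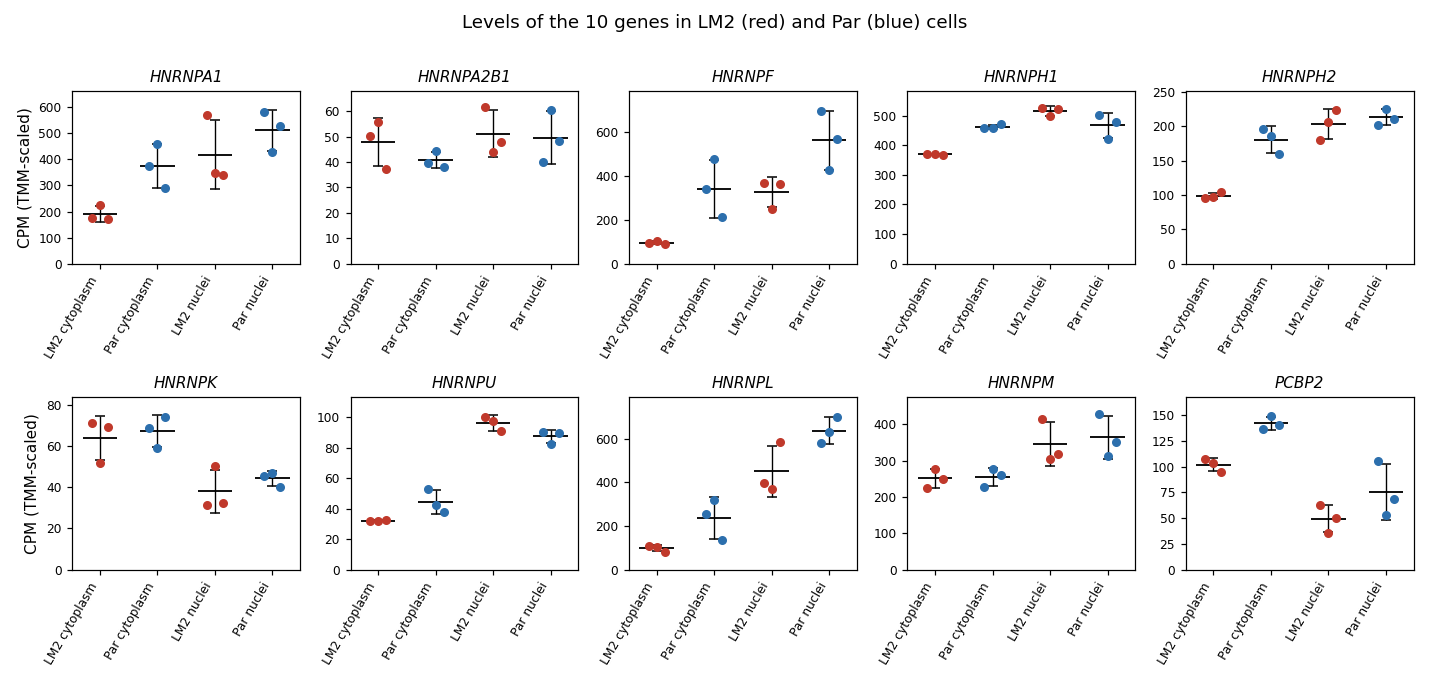
Level of each gene (CPM, TMM-scaled, axes from 0) in the 3 libraries of each group, with the mean and SD as bars; LM2 red, Par blue. HNRNPF, HNRNPL, HNRNPH2 and HNRNPA1 lie lower in LM2 than in Par cytoplasm without overlap, while for HNRNPM (251 and 255 CPM on average) and HNRNPK the groups overlap.

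The call for HNRNPA1 was lost when LM2 cytoplasm replicate 1 or 3 or Par cytoplasm replicate 1 or 2 was left out (edgeR adjusted p 0.067 to 0.098), and that for HNRNPL without LM2 replicate 3 or Par replicate 1 or 2 (0.057 to 0.072). Library totals in place of TMM also ended both calls, at edgeR adjusted p of 0.13 for HNRNPA1 and 0.057 for HNRNPL. The summed level of the 6 RNAs listed as cytoplasmic was 23020 to 24670 CPM in LM2 and 13300 to 17050 CPM in Par cytoplasm, most of it ACTB (18300 to 19800 CPM in LM2 and 9855 to 13270 CPM in Par), and its part in these results was not tested. Of the 6 members that did not pass the test, HNRNPH1, HNRNPU and PCBP2 also had all LM2 libraries below all Par libraries. The share of all genes that separate in this way was not counted, here or in any other comparison. Statements of no overlap are therefore descriptions only. HNRNPH1 had 366 to 371 CPM in LM2 and 457 to 470.4 CPM in Par cytoplasm (-0.32 ± 0.12, edgeR adjusted p = 0.093), and fitting the cytoplasm alone gave -0.33 with an edgeR adjusted p of 0.012. HNRNPU was at 32.0 ± 0.29 against 44.3 ± 7.87 CPM (-0.47 ± 0.17, edgeR adjusted p = 0.087) and PCBP2 at 102 ± 6.50 against 142 ± 6.49 CPM (-0.48 ± 0.24, edgeR adjusted p = 0.23). For HNRNPM the difference was -0.02 ± 0.17 and for HNRNPK -0.07 ± 0.21.

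In nuclei no member was called between LM2 and Par cells, where 2.7% of all genes were (1.37% higher, 1.33% lower). At an unadjusted p under 0.05, 2 members passed, and DESeq2 called 0. The share of all genes at that unadjusted threshold was not counted, so the 2 have no background. HNRNPU lay above Par in all 3 LM2 libraries by 0.14 ± 0.16 (edgeR adjusted p = 0.83). HNRNPF alone lay below, with 368, 249 and 364 CPM in LM2 nuclei, against 695, 425 and 567 CPM in Par nuclei (-0.78 ± 0.27, edgeR adjusted p = 0.18). HNRNPH2, which was lower in LM2 cytoplasm, had 181, 207 and 223 CPM in LM2 nuclei and 203, 226 and 211 CPM in Par nuclei (-0.07 ± 0.14, edgeR adjusted p = 0.95). The difference between the LM2 effect in nuclei and in cytoplasm was tested itself. It was 0.81 ± 0.20 for HNRNPH2 (unadjusted p = 0.0015, edgeR adjusted p = 0.32) and 1.05 ± 0.38 for HNRNPF (edgeR adjusted p = 0.44). No member and none of the 8541 genes passed, a background of 0%, so the effects in the fractions are not shown to differ. At an unadjusted p under 0.05, 4 members passed, again with no share of all genes counted at that threshold, and DESeq2 called 0.

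The nuclear and cytoplasmic levels of the genes differed in a member-specific way. Each library was scaled to its own depth, so these contrasts compare levels relative to the other RNA of a fraction. They do not give how many molecules of a transcript lay in either fraction. HNRNPU and HNRNPL were higher in nuclei and PCBP2 was higher in the cytoplasm, whichever cells were compared, though for HNRNPL in gHNRNPC cells without passing the test. In LM2 cells 7 members were higher in nuclei and 2 lower, in Par cells 4 and 2, in gHNRNPC cells 1 and 1, and in gCTRL cells 5 and 2. Of all genes tested, 29.7% were called higher and 23.7% lower in LM2 nuclei, 24.6 and 22.1% in Par nuclei, 31.6 and 23.8% in gHNRNPC nuclei, and 34.1 and 28.1% in gCTRL nuclei, which together make 53.4, 46.8, 55.4 and 62.2%. The median change of the members was 0.76, 0.36, -0.19 and 0.51 in LM2, Par, gHNRNPC and gCTRL cells, and that of all genes 0.22, 0.07, 0.02 and 0.06.

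HNRNPU had 100, 97.6 and 90.6 CPM in LM2 nuclei and 31.7, 31.9 and 32.3 CPM in LM2 cytoplasm, a log2 difference of 1.58 ± 0.17 (edgeR adjusted p = 1.0e-05). In Par cells it was 0.98 ± 0.17 (edgeR adjusted p = 4.6e-04), in gHNRNPC cells 0.57 ± 0.19 (0.014) and in gCTRL cells 1.02 ± 0.20 (1.1e-04), with no overlap of nuclear and cytoplasmic libraries in any of the 4. The gHNRNPC call was lost without cytoplasmic replicate 2 or 3 or nuclear replicate 1 or 2 (0.059 to 0.13). HNRNPL had 399, 369 and 584 CPM in LM2 nuclei, against 110, 103 and 82.2 CPM in LM2 cytoplasm (2.19 ± 0.28, edgeR adjusted p = 4.4e-05), the widest gap of any member. It was 1.43 ± 0.28 in Par (edgeR adjusted p = 0.0011) and 1.38 ± 0.28 in gCTRL cells (2.8e-04). In gHNRNPC cells it was 0.66 ± 0.28 (edgeR adjusted p = 0.0503) and passed in 12 of 20 alternative fits, 7 of them without 1 library, at 0.0058 to 0.049.

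PCBP2, which stabilises mRNAs with C-rich 3′ elements, had 62.6, 35.7 and 50.5 CPM in LM2 nuclei and 107, 104 and 94.6 CPM in LM2 cytoplasm (-1.03 ± 0.25, edgeR adjusted p = 0.0042). The difference was -0.91 ± 0.25 in Par, -0.97 ± 0.29 in gHNRNPC and -1.30 ± 0.22 in gCTRL cells, each past the test (edgeR adjusted p 0.0097, 0.0061 and 1.4e-05). HNRNPK, the other KH-domain protein gene of the set, was lower in nuclei of LM2 (-0.76 ± 0.22), Par (-0.61 ± 0.22) and gCTRL cells (-0.90 ± 0.21) and at -0.32 ± 0.24 in gHNRNPC cells, where the groups overlapped. Par HNRNPK lost its call without any one of 5 libraries, cytoplasmic 1 or 3 or nuclear 1, 2 or 3 (edgeR adjusted p 0.053 to 0.1). Dropping the TMM factors also ended the PCBP2 calls in LM2 and Par cells, at edgeR adjusted p of 0.061 and 0.083.

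HNRNPF was higher in nuclei of LM2 (1.77 ± 0.28), Par (0.72 ± 0.27) and gCTRL cells (0.69 ± 0.26), and at -0.25 ± 0.26 in gHNRNPC cells. Its nuclear and cytoplasmic libraries lay apart in LM2 cells but overlapped in Par, gCTRL and gHNRNPC cells. In Par cells the call was lost in 9 of the fits without 1 library (edgeR adjusted p 0.058 to 0.16), and in gCTRL cells without cytoplasmic replicate 2 or nuclear replicate 2 or 3 (0.087 to 0.14). HNRNPH1 and HNRNPH2 were higher in nuclei of LM2 (0.48 ± 0.12 and 1.04 ± 0.14) and gCTRL cells (0.80 ± 0.17 and 0.51 ± 0.19) but not past the test in Par (0.02 ± 0.12 and 0.24 ± 0.14) or gHNRNPC cells (-0.02 ± 0.17 and -0.13 ± 0.19). The LM2 call of HNRNPH1 was lost with library totals (edgeR adjusted p = 0.11) and with no expression filter (0.069). The gCTRL call of HNRNPH2 was lost without cytoplasmic or nuclear replicate 1 or 2 (edgeR adjusted p 0.055 to 0.14). HNRNPA1 was higher in LM2 nuclei (1.13 ± 0.23, edgeR adjusted p = 0.0015) and not called in the other cells, with 0.45 ± 0.23 in Par, -0.30 ± 0.24 in gHNRNPC and -0.05 ± 0.24 in gCTRL. In Par cells HNRNPA1 passed with entries of whole counts only and without both nuclear libraries numbered 2 (lowest edgeR adjusted p 0.038). The LM2 and Par contrasts of HNRNPA1 did not differ past the test (0.68 ± 0.33, edgeR adjusted p = 0.55). HNRNPM passed in LM2 (0.46 ± 0.17) and Par cells (0.52 ± 0.17), but in 9 and 5 of the fits without 1 library it did not (edgeR adjusted p 0.054 to 0.15 and 0.051 to 0.12). In the knockdown table HNRNPM pointed the other way, with all nuclear libraries below the cytoplasmic ones, at -0.35 ± 0.17 in gHNRNPC (edgeR adjusted p = 0.080) and -0.18 ± 0.17 in gCTRL cells (0.35). The gHNRNPC difference passed with median-of-ratios factors, library totals or DESeq2 (adjusted p 0.012 to 0.048). HNRNPA2B1 did not pass when all its entries were summed, at 0.10 ± 0.22 in LM2, 0.28 ± 0.22 in Par, -0.08 ± 0.24 in gHNRNPC and 0.51 ± 0.23 in gCTRL cells. With annotated transcript ends only it was higher in nuclei of LM2 (0.93, edgeR adjusted p = 0.012), Par (0.88, 0.018) and gCTRL cells (1.10, 6.9e-04). These ends include HNRNPA2B1-204, near which 0 of the 4 coding HNRNPA2B1 transcripts end. ACTB was at 2163 to 3489 CPM in nuclei and 5533 to 8486 CPM in cytoplasm of gHNRNPC cells, and at 2620 to 4515 and 12190 to 18950 CPM in those of gCTRL cells. TPT1 was at 1111 to 1672 and 3834 to 4419 CPM in gHNRNPC and at 895 to 1084 and 5551 to 5659 CPM in gCTRL cells. Both stayed higher in the cytoplasm, MT-ND4 was higher in nuclei of both (6740 to 10000 CPM in gHNRNPC and 6224 to 7311 CPM in gCTRL nuclei), and the part of these markers in the smaller contrasts of gHNRNPC cells was not tested.

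**Figure D2:**
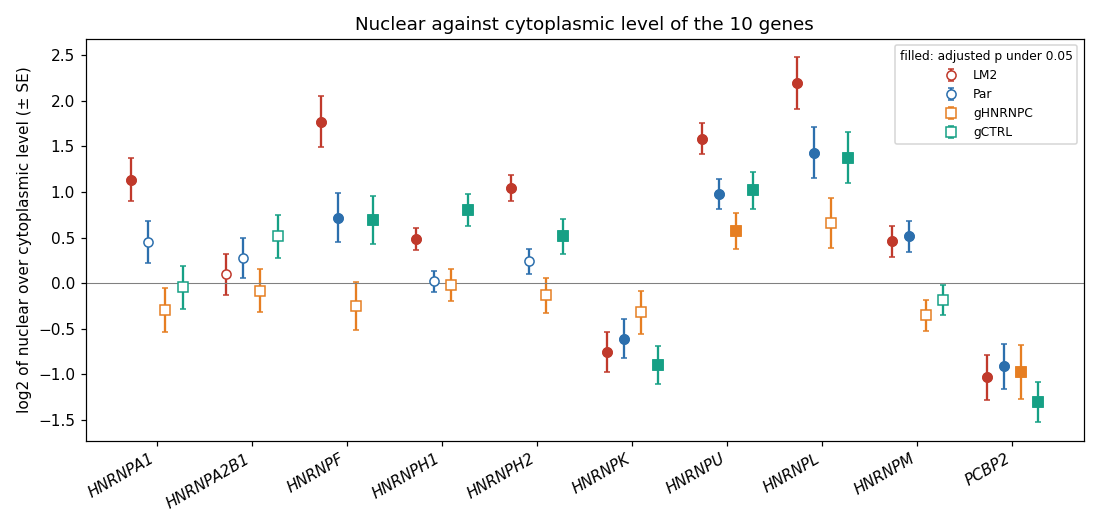
Log2 of the nuclear over the cytoplasmic level of each gene (± SE of the edgeR fit, n = 3 libraries a fraction) in LM2, Par, gHNRNPC and gCTRL cells; filled symbols passed an adjusted p of 0.05. HNRNPU and HNRNPL lie above 0 and PCBP2 below 0 in all 4, and the gHNRNPC symbol is lower than the gCTRL one for 8 of the 10 genes, all but HNRNPK and PCBP2.

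After HNRNPC knockdown, PCBP2 fell in both fractions, HNRNPK fell and HNRNPU rose in the cytoplasm, and HNRNPH1 fell in nuclei. In the cytoplasm 1 member was called higher and 2 lower, against 12.3% of 9351 genes higher and 12.4% lower (24.7% in all), and the median change was 0.07 over members and 0.01 over all genes. In nuclei none was higher and 2 were lower, against 8.84 and 5.94% of all genes (14.8% in all), with medians of -0.34 (9 of 10 negative) and 0.04. All 5 calls held in each of the 20 alternative fits.

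PCBP2 had 33.9, 52.2 and 26.8 CPM in gHNRNPC cytoplasm, against 180, 114 and 175 CPM in gCTRL cytoplasm, a log2 change of -2.06 ± 0.23 (edgeR adjusted p = 3.2e-07). The highest gHNRNPC library was below the lowest gCTRL library. In nuclei it had 16.1, 22.1 and 18.8 CPM in gHNRNPC cells and 60.4, 57.1 and 72.7 CPM in gCTRL cells (-1.73 ± 0.28, edgeR adjusted p = 1.1e-04), again without overlap. These nuclear values rest on 19 to 28 reads a library in gHNRNPC cells and 89 to 111 in gCTRL cells. At least 99.01% of the PCBP2 reads of this table lay at the end of PCBP2-219, shown above with its ATTAAA. The fall differed between nuclei and cytoplasm by 0.33 ± 0.37 (edgeR adjusted p = 0.79).

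HNRNPK had 38.2, 32.5 and 42.1 CPM in gHNRNPC cytoplasm and 68.0, 69.7 and 66.8 CPM in gCTRL cytoplasm (-0.85 ± 0.21, edgeR adjusted p = 0.0032). In nuclei, where the groups overlapped, its change was -0.28 ± 0.24 (edgeR adjusted p = 0.51). HNRNPU had 79.7, 74.6 and 69.3 CPM in gHNRNPC cytoplasm, against 40.5, 35.9 and 45.2 CPM in gCTRL cytoplasm, so that each knockdown library exceeded each control (0.87 ± 0.20, edgeR adjusted p = 0.0023). In nuclei it had 130.2, 116 and 87.1 CPM in gHNRNPC and 71.7, 85.3 and 89.7 CPM in gCTRL cells, which overlap (0.43 ± 0.20, edgeR adjusted p = 0.15). HNRNPH1 had 375, 321 and 364 CPM in gHNRNPC nuclei, against 593, 742 and 609 CPM in gCTRL nuclei (-0.87 ± 0.17, edgeR adjusted p = 9.5e-04), with no overlap. In the cytoplasm it had 343, 373 and 357 CPM in gHNRNPC and 399, 306 and 408 CPM in gCTRL cells (-0.05 ± 0.17, edgeR adjusted p = 0.85).

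The difference between the knockdown effect in nuclei and in cytoplasm was negative for 8 of 10 members, with a median of -0.52 against 0.04 over all genes. No member passed the test, against 0.0214% of all genes. HNRNPH1 came nearest (-0.82 ± 0.25, unadjusted p = 0.0024, edgeR adjusted p = 0.25) and passed with DESeq2 (adjusted p = 0.036), followed by HNRNPF (-0.95 ± 0.37, edgeR adjusted p = 0.37). At an unadjusted p under 0.05, 3 members passed, but the share of all genes at that threshold was not counted. HNRNPA1 was at -0.22 ± 0.24 in cytoplasm and -0.47 ± 0.24 in nuclei, and the nuclear change passed once gHNRNPC nuclear replicate 2 was left out (-0.78, edgeR adjusted p = 0.047). HNRNPL was at 0.59 ± 0.28 in cytoplasm (edgeR adjusted p = 0.13) and passed without gHNRNPC cytoplasmic replicate 1 (0.82, edgeR adjusted p = 0.023). HNRNPF was at 0.47 ± 0.26 in cytoplasm and -0.47 ± 0.27 in nuclei, and HNRNPH2 at 0.36 ± 0.19 and -0.29 ± 0.19. HNRNPM and HNRNPA2B1 had changes between -0.40 and 0.20 in both fractions. In nuclei the gHNRNPC libraries of HNRNPA2B1, HNRNPH2 and HNRNPM lay below the gCTRL ones without overlap, but none of these changes passed. How many of all genes lay apart in this way was not counted, so nothing is drawn from it.

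**Figure D3:**
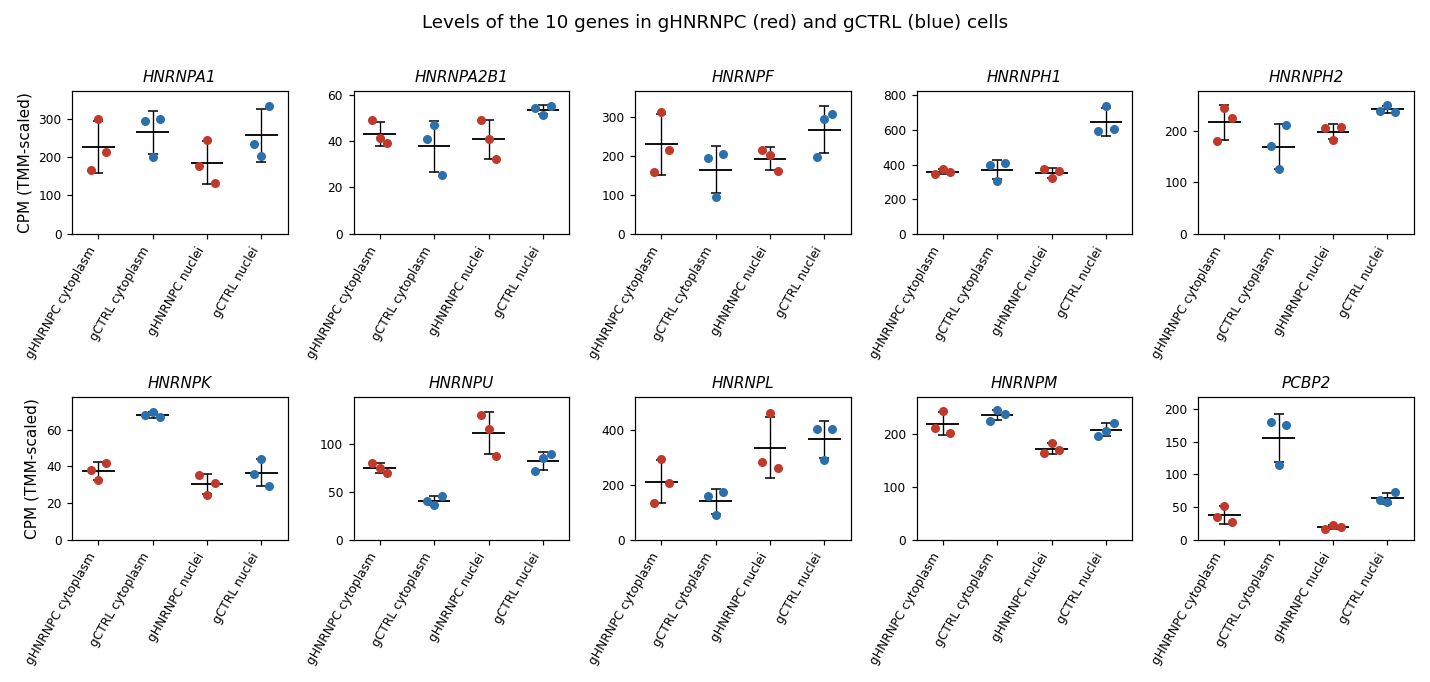
Level of each gene (CPM, TMM-scaled, axes from 0) in gHNRNPC (red) and gCTRL (blue) libraries, cytoplasm and nuclei, with mean and SD. PCBP2 is lower in gHNRNPC in both fractions, HNRNPK lower and HNRNPU higher in gHNRNPC cytoplasm, and HNRNPH1 lower in gHNRNPC nuclei, each without overlap.

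T4 changed the level of no member past the test at any harvest. Against DMSO, 0 of 10 were called at 6 h, where 16.4% of 8035 genes were, 0 at 24 h (background 5.08%) and 0 at 72 h (0.236%). At an unadjusted p under 0.05, 1 member, HNRNPU, passed at each harvest, and the share of all genes at that threshold was not counted. DESeq2 called 0 at 6 h and HNRNPU at 24 h and 72 h. The medians over members were 0.01, 0.08 and 0.23 at 6, 24 and 72 h, and over all genes -0.11, 0.02 and -0.01. In DMSO cells no member changed from 6 h to 24 h (background 0%) or to 72 h (4.22%).

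HNRNPU came nearest to a call. At 6 h it had 70.2, 66.5 and 54.0 CPM in T4 cells, against 49.5, 43.5 and 50.9 CPM in DMSO cells (0.42 ± 0.20, edgeR adjusted p = 0.14). At 24 h it had 80.5, 63.1 and 77.9 CPM in T4 cells and 46.6, 56.2 and 38.9 CPM in DMSO cells (0.64 ± 0.19, edgeR adjusted p = 0.060). At 72 h it had 68.3, 77.8 and 66.9 CPM in T4 cells and 32.0, 43.2 and 42.7 CPM in DMSO cells (0.85 ± 0.19, unadjusted p = 3.5e-04, edgeR adjusted p = 0.096). The T4 libraries lay above the DMSO libraries at each harvest without overlap. Without the 6 h T4 library numbered 3, HNRNPU passed at 24 h (0.58, edgeR adjusted p = 0.033) and at 72 h (0.85, edgeR adjusted p = 0.016) but not at 6 h (0.52, edgeR adjusted p = 0.096). DESeq2 gave adjusted p-values of 0.037 at 24 h and 0.0030 at 72 h. With the replicate number as a block, which the pairing check allowed at 72 h, HNRNPU was at 0.85 with an edgeR adjusted p of 0.17.

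The other members' libraries mostly overlapped. HNRNPH1 had 273, 276 and 296 CPM in T4 cells at 24 h and 387, 352 and 367 CPM in DMSO cells, without overlap, a difference of -0.39 ± 0.31 that passed only without the 6 h T4 library numbered 3 (-0.45, edgeR adjusted p = 0.031) or with the 24 h groups fitted alone (edgeR adjusted p = 0.025). Without that library the difference of its T4 effect between 24 h and 6 h also passed, at -0.81 (edgeR adjusted p = 0.011), against -0.37 with it. HNRNPF had 179, 389 and 192 CPM in T4 cells at 72 h and 135, 165 and 129 CPM in DMSO cells (0.82 ± 0.46, edgeR adjusted p = 0.67), without overlap, with 1 T4 library far above the rest. PCBP2 was lower in all T4 libraries at 24 h, with 39.4, 51.1 and 53.8 CPM against 59.1, 71.4 and 56.2 CPM (-0.37 ± 0.27, edgeR adjusted p = 0.40).

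**Figure D4:**
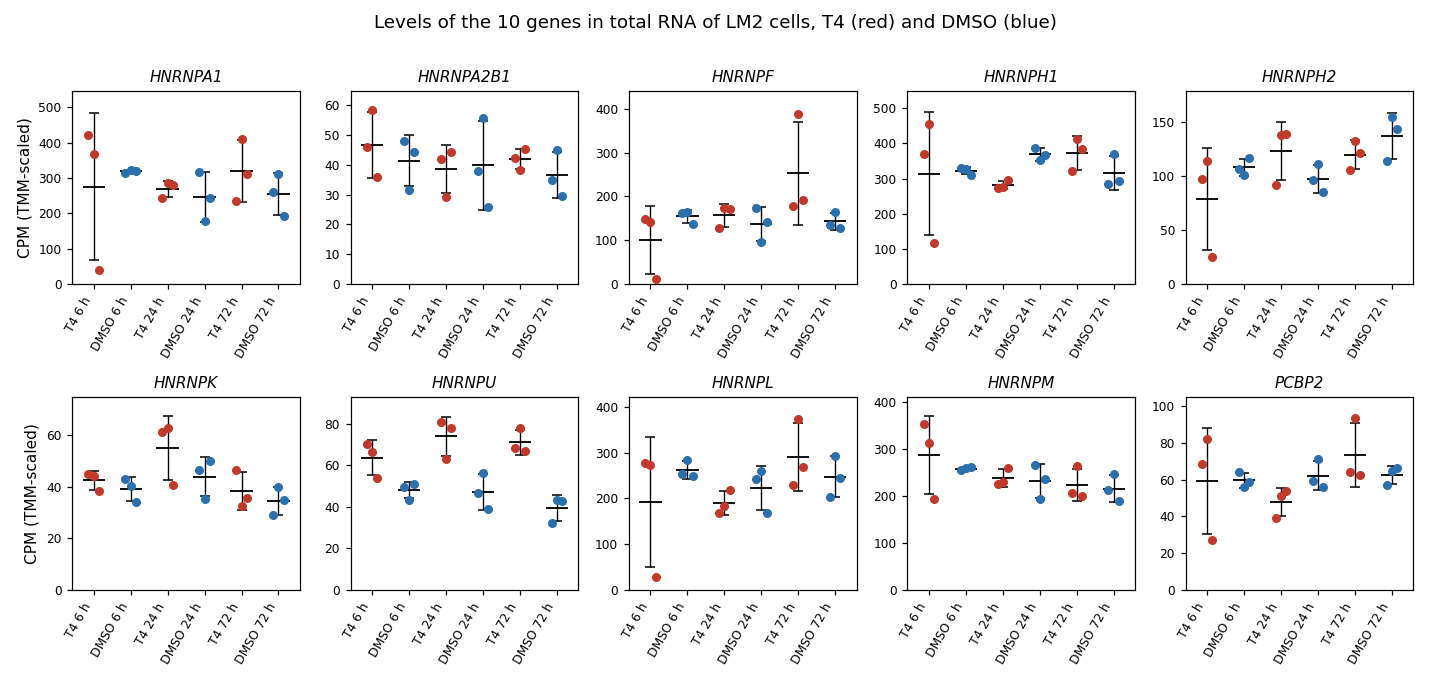
Level of each gene (CPM, TMM-scaled, axes from 0) in LM2 total RNA after T4 (red) or DMSO (blue) at 6, 24 and 72 h, with mean and SD. HNRNPU lies higher in T4 libraries at each harvest, and 1 of the 3 T4 libraries at 6 h is far below the others for HNRNPA1, HNRNPF, HNRNPH1, HNRNPH2 and HNRNPL.

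The use of the 2 HNRNPA1 ends differed between nucleus and cytoplasm and after HNRNPC knockdown. The test compares the log2 ratio of distal (HNRNPA1-203) to proximal (HNRNPA1-201) reads between groups, with a library term that removes the level of the gene. In LM2 nuclei 17.2, 12.8 and 15.3% of the reads of both ends were distal, against 2.21, 1.11 and 1.68% in LM2 cytoplasm (3.39 ± 0.38, edgeR adjusted p = 7.0e-05). In Par nuclei the shares were 13.6, 9.68 and 12%, against 1.26, 2.80 and 1.88% in Par cytoplasm (2.74 ± 0.35, edgeR adjusted p = 7.6e-04). Nuclear and cytoplasmic libraries were far apart in both lines. Of the 4 members tested, HNRNPA1 and HNRNPA2B1 moved toward the distal site in nuclei of both lines, against 28.1 and 9.43% of 827 genes with a known order in LM2 and Par cells (38.4 and 11.7% of 1070 genes in either direction). LM2 and Par cells did not differ past the test in either fraction (-0.23 ± 0.38 in cytoplasm, 0.42 ± 0.33 in nuclei), where 1.5 and 0% of 1070 genes did.

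After HNRNPC knockdown the cytoplasmic share of the distal HNRNPA1 end was 5.82, 6.24 and 5.96% in gHNRNPC cells, from 18, 37 and 30 distal reads, against 0.916, 2.19 and 1.89% in gCTRL cells, from 5, 8 and 12. Each knockdown library was above each control library. The log2 ratio moved toward the distal end by 1.94 ± 0.44 (edgeR adjusted p = 0.0063), while the summed level of the gene was at -0.22 ± 0.24. Of the genes with a known order 10.1% were called in that direction (12.3% of 1168 genes in either), and of the 4 members 1. In nuclei 48.1, 48.1 and 34.8% of the reads were distal in gHNRNPC cells and 22.8, 31.3 and 43.2% in gCTRL cells, which overlap (0.72 ± 0.35, edgeR adjusted p = 0.31, background 2.67% toward distal, 3.77% either way). The difference between both effects was -1.23 ± 0.56 (edgeR adjusted p = 0.70). Nuclei against cytoplasm gave 3.60 ± 0.37 in gHNRNPC and 4.82 ± 0.41 in gCTRL cells (edgeR adjusted p = 1.3e-06 and 6.9e-08), against 8.57 and 22% of genes called toward the distal site (14.5 and 29.7% either way). All 5 HNRNPA1 calls held in each of the 19 alternative fits.

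**Figure D5:**
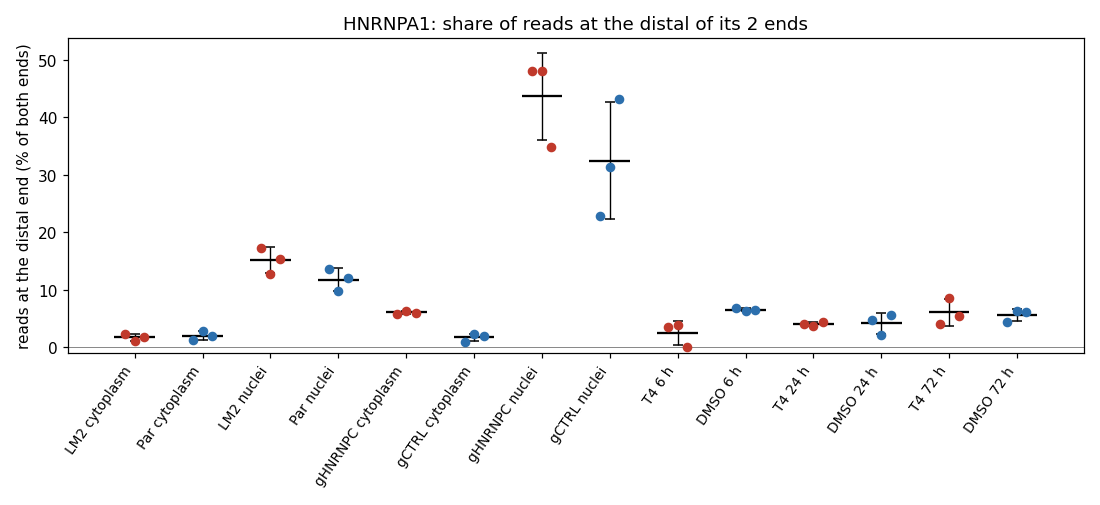
Percent of the reads of both HNRNPA1 ends that lie at the distal end, per library (points), with mean and SD, in all 14 groups; LM2, gHNRNPC and T4 red, Par, gCTRL and DMSO blue. Cytoplasmic libraries lie at or below 6.24%, nuclear libraries between 9.68 and 48.1%, and gHNRNPC cytoplasm above gCTRL cytoplasm.

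In total RNA of LM2 cells the distal HNRNPA1 share was 3.43, 3.79 and 0% after T4 and 6.75, 6.2 and 6.45% after DMSO at 6 h (-0.95 ± 0.45, edgeR adjusted p = 0.25). The 0% is 0 of 17 reads in the library that stood apart. At 24 h the shares were 4, 3.7 and 4.31% in T4 and 4.77, 2.08 and 5.60% in DMSO cells, and at 72 h 3.98, 8.61 and 5.45% and 4.39, 6.32 and 6.12%. No member was called in the T4 table at any harvest, where 5.71, 2.48 and 0% of 806 genes were.

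HNRNPA2B1 shifted toward HNRNPA2B1-204, taken as its distal end, in nuclei of the first table. Near that end 0 of the 4 coding HNRNPA2B1 transcripts stop. LM2 nuclei had 86.5, 60.6 and 91.0% of the reads there and LM2 cytoplasm 58.2, 49.3 and 60.4% (1.84 ± 0.56, edgeR adjusted p = 0.021), from 45, 20 and 61 distal and 7, 13 and 6 proximal reads in nuclei and 32, 35 and 29 distal and 23, 36 and 19 proximal reads in cytoplasm. Par nuclei had 86.3, 81.6 and 83.6% and Par cytoplasm 60.5, 60.8 and 56.1% (1.83 ± 0.54, edgeR adjusted p = 0.047), with 7, 9 and 9 proximal reads in nuclei and 32, 31 and 25 in cytoplasm. The first call was lost without LM2 cytoplasmic replicate 2 or nuclear replicate 1 or 3 (edgeR adjusted p 0.074 to 0.097) and the second without any one of 9 libraries, all but the 3 LM2 nuclear ones (0.052 to 0.15). In the knockdown table it was at 0.94 ± 0.72 in gHNRNPC and 1.39 ± 0.66 in gCTRL cells and did not pass. At 24 h T4 cells had 61.5, 53.1 and 62.5% distal reads, against 78.6, 85.4 and 83.3% in DMSO cells, without overlap (-1.69 ± 0.50, edgeR adjusted p = 0.070), and the test was passed with the 24 h groups fitted alone, with diffSpliceDGE, or without the 6 h T4 library numbered 2 or 3 (0.017 and 0.049).

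HNRNPF used HNRNPF-201, taken as its distal end, for 92.2, 97.1 and 96.1% of reads in gCTRL nuclei and 92.9, 83.9 and 90.1% in gCTRL cytoplasm (1.27 ± 0.44, edgeR adjusted p = 0.034), which overlap. That call was lost without cytoplasmic or nuclear replicate 2 or 3 (edgeR adjusted p 0.065 to 0.15), and in LM2 nuclei the change was 1.10 ± 0.46 (edgeR adjusted p = 0.076). HNRNPU had 60% to 100% of the reads of both sites at HNRNPU-226 and passed no test of site use. Its largest change was 1.51 ± 0.56 after T4 at 6 h (edgeR adjusted p = 0.13).

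Of 29 other hnRNP and related genes listed by name, 24 were measured in the first table and 23 in the others. In LM2 against Par cytoplasm 1 was higher (PCBP3, 3.24 ± 0.30, at 44.0 against 4.57 CPM on average) and 2 lower (PTBP3, -1.11 ± 0.24, and HNRNPAB, -1.06 ± 0.29), and in nuclei only PCBP3 was called. Of all genes tested, 4.38% were called higher and 7.79% lower in the cytoplasm, and 1.37 and 1.33% in nuclei. After the knockdown 2 rose and 4 fell in the cytoplasm, with the largest changes in RBM3 (-1.45 ± 0.21), the HNRNPU paralogue HNRNPUL1 (-1.14 ± 0.22) and HNRNPDL (1.07 ± 0.18), and 1 rose and 3 fell in nuclei, among them RBM3 (-1.24 ± 0.26) and HNRNPDL (0.91 ± 0.18). The shares of all genes were 12.3% higher and 12.4% lower in the cytoplasm, and 8.84 and 5.94% in nuclei. After T4, HNRNPDL was called lower (-0.67 ± 0.21, edgeR adjusted p = 0.033) and RALY higher (0.73 ± 0.22) at 6 h. At 24 h HNRNPDL (1.19 ± 0.21, edgeR adjusted p = 0.0036) and RBMX (0.64 ± 0.18) were called higher, and at 72 h 0 were called. Of all genes tested, 3.42% were called higher and 13% lower at 6 h, 2.09 and 2.99% at 24 h, and 0.0996 and 0.137% at 72 h. Between nuclei and cytoplasm the list had 0, 1, 0 and 1 called higher and 7, 8, 12 and 11 called lower in LM2, Par, gHNRNPC and gCTRL cells. Over all genes, 29.7, 24.6, 31.6 and 34.1% were called higher in these nuclei and 23.7, 22.1, 23.8 and 28.1% lower.

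Over the 42 libraries, with each table centred on its mean, the level of HNRNPL was most like that of OCIAD1 among 7634 genes (Pearson r = 0.951 of log2 CPM), that of HNRNPF most like CAPZB (0.945), HNRNPA1 like CALM2 (0.942), PCBP2 like NUCKS1 (0.931) and HNRNPH2 like CUL4B (0.904). The nearest gene was MICA for HNRNPU (0.86), CDC42BPB for HNRNPH1 (0.856), TALDO1 for HNRNPK (0.846), TRA2B for HNRNPM (0.784) and AC073869.1 for HNRNPA2B1 (0.516). Among the members, HNRNPA1 and HNRNPF were the most alike (0.888). These are descriptions over libraries that share groups, and the values share depth and the library that stood apart.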

How the data were processed

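In 3 tables, 1 row for each transcript end or named site, the authors deposited values that are expected counts (estimated counts of reads), made with Salmon 0.14.1 and hg38 per the submitters' processing notes; their other steps are not given in the sources used here. The 10 members, the other lists and the tests were chosen with earlier results of these data known. Entries were rounded and summed per gene (GENCODE 29; position entries went to the gene of the transcript listed above them). Genes were tested with edgeR 4.0.16 (R 4.3.3) on each whole table: expression filter, TMM scaling, quasi-likelihood test, Benjamini-Hochberg adjustment over all genes of a comparison, calls at 0.05. Site use was tested as the interaction of site and group for the 2 most used sites of a gene whose means over the table reached 10 counts. The biological coefficient of variation was 36.7, 18.8 and 24.8% in the LM2, knockdown and T4 tables. The functions were tested on simulated data. Counting limits precision for members with few reads. The alternatives used DESeq2 1.42.0, limma 3.58.1, other scalings, filters, entry sets and fits without each library. For the LM2 table they included a fit without both nuclear libraries numbered 2.

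Pairing was checked by the correlation of same-numbered libraries' deviations. It was over 0.1 for all numbers in LM2 against Par nuclei (0.626, 0.749 and 0.151) and in T4 against DMSO at 72 h (0.270, 0.626 and 0.134), so the replicate number was taken as a block there as an alternative, which changed no call of a member. The named genes were the 10 members, HNRNPC, the most similar gene of each and the listed hnRNP genes with the largest changes.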

Additional observations from a re-analysis of the deposited data

How the results depend on the processing

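Of 41 calls, 26 held under every alternative, among them all 5 level calls after the knockdown and all 5 calls of HNRNPA1 site use. With library totals in place of TMM the members called were 2 (main 4; HNRNPA1 and HNRNPL lost) for LM2 against Par cytoplasm and 2 (main 6; HNRNPU and HNRNPL left) for nuclei against cytoplasm in Par. Entries with whole counts only gave 1 (main 0) in LM2 against Par nuclei and 1 at each T4 harvest. Median-of-ratios size factors gave 4 (main 2) in gHNRNPC nuclei against cytoplasm. DESeq2 gave 1 (main 0) for the difference of the knockdown effect and for T4 at 24 h and 72 h, and transcript ends or the 24 h groups alone gave 1 at 24 h. For site use, nuclei against cytoplasm, 1 member (main 2) was left in LM2 with its groups alone. In Par and gCTRL 1 was left with site means of at least 1 or with limma. With site means of at least 50, 1 was also left in gCTRL, but there HNRNPF was no longer tested. For T4, limma gave 1 (main 0) at 6 h, and diffSpliceDGE or the groups alone 1 at 24 h.

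Leaving out one library gave 2 to 4 members in LM2 against Par cytoplasm, 3 to 4 and 2 to 3 after the knockdown in cytoplasm and nuclei, 8 to 9, 3 to 6, 1 to 3 and 5 to 7 for nuclei against cytoplasm in LM2, Par, gHNRNPC and gCTRL cells, 0 to 2 and 0 to 1 for T4 at 24 h and 72 h, and 0 to 1 for the difference between 24 h and 6 h. For site use it gave 1 to 3 in LM2 and gCTRL, 1 to 2 in Par, and 0 to 1 for T4 at 6 h and 24 h. The cause was not tested. HNRNPA2B1 in LM2 nuclei against cytoplasm (0.10, not called) turned to -0.016 with median-of-ratios factors, -0.019 with DESeq2, -0.075 without LM2 cytoplasm replicate 3 and -0.07 without LM2 nuclei replicate 1, within -0.075 to 0.199 over the fits without one library, and was 0.93 and called (adjusted p = 0.012) with transcript ends only.

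With the replicate block the called members were the same except that in nuclei against cytoplasm HNRNPM was lost in LM2 (adjusted p = 0.054) and HNRNPF and HNRNPK in Par (0.060 and 0.056); site use in gCTRL lost HNRNPF (0.057) and gained HNRNPA2B1 (0.034). Same-numbered libraries did not pair there. Other scalings moved all genes of a comparison by up to 0.65 (library totals, T4 difference between 72 h and 6 h). Few reads (HNRNPA2B1, above all its proximal site in nuclei, HNRNPK, HNRNPU, PCBP2 and the distal HNRNPA1 end in cytoplasm) limit what could be detected. Levels cover only the ends listed in the tables.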
